A study of Homo sapiens with 14 samples.

Results

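The genes studied here were those that encode the proteasome, the chamber that degrades ubiquitin-tagged proteins, together with its activators, its inhibitor and its assembly chaperones. They were taken as every gene symbol made of PSMA, PSMB, PSMC, PSMD, PSME, PSMF or PSMG and a number that had a mean of at least 1 FPKM, a read level scaled to transcript length and library size, in a table. The rule matched 48 symbols in each table, out of 28501 genes in the first and 25209 in the second. Of these, 44 passed the level in both tables, 44 of 48 in the first and 46 of 48 in the second. The 44 were 7 alpha and 7 constitutive beta subunits of the 20S core, 1 inducible beta subunit, 6 ATPases and 11 non-ATPase subunits of the 19S regulatory particle, 3 chaperones of the 19S particle, 4 activators, 1 inhibitor and 4 chaperones of the 20S core. PSMA8 and PSMB11, the tissue-restricted subunits of testis and thymus, passed in neither table, and PSMB8 and PSMB9 passed in the second table alone. Nearest the level in the first table were PSMB10 just inside, with a mean of 2.51 FPKM over its 10 libraries, and PSMB8 just outside, with 0.0867 FPKM.

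The study sequenced RNA from U2OS, an established human osteosarcoma cell line, after exposure to compounds that act on chromatin or on autophagy, and its title places it in the question of whether blocking the removal of methyl groups from histone H3 lysine 4 starts autophagy. Libraries with 2 replicates were 2-PCPA (tranylcypromine, an inhibitor of the demethylase KDM1A and of monoamine oxidases) at 1 mM for 12 h, GSK343 (an EZH2 inhibitor) at 10 µM for 24 h, and rapamycin (an mTOR inhibitor) at 5 µM for 24 h. Libraries with 1 replicate were BIX-01294 at 5 µM for 12 h and BRD4770 at 20 µM for 24 h (both directed at the EHMT methyltransferases), GSK-J4 (a KDM6 demethylase inhibitor) at 20 µM for 12 h, SAHA at 1 µM and VPA at 20 µM for 24 h each (histone deacetylase inhibitors), and UNC1215 (a ligand of L3MBTL3) at 50 µM for 24 h. The solvent control was 0.5% DMSO by volume with 2 replicates, for which the labels give no time, so a compound kept on for 12 h and one kept on for 24 h were both set against the same control. The labels name no engineered change in any group. The labels do not say that replicates came from separate cultures, and the p-values then reflect the spread between libraries alone, part of which may be technical.

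Proteasomes consist of a barrel of alpha and beta rings, the 20S core, in which PSMB5, PSMB6 and PSMB7 carry the proteolytic sites, capped by a 19S regulatory particle that binds, deubiquitinates, unfolds and feeds in substrates. Cells exposed to interferon can swap the proteolytic subunits for PSMB8, PSMB9 and PSMB10, and can replace the 19S cap by the PSME activators. When proteasomes are inhibited, the transcription factor NRF1 (gene NFE2L1) is released from the endoplasmic reticulum by VCP, cleaved by DDI2, and drives subunit genes through antioxidant response elements with small MAF partners, so subunit transcripts are known to be regulated together.

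PSMD14 was the lowest member in the first GSK343 library and with VPA, and PSMD1 and PSMA4 were the lowest with GSK-J4. PSMD2 was the member that was highest with BRD4770, and it was high with GSK-J4. Promoters are shown for these 4 members, chosen after their values were seen. Each is the RefSeq sequence on GRCh38.p14, plus strand, from 250 bases before to 50 bases after a gene start, at chr2:161308175-161308474 for PSMD14, chr2:231056617-231056916 for PSMD1, chr15:78540536-78540835 for PSMA4 and chr3:184298991-184299290 for PSMD2. The expression tables were made on hg19, so the promoters were joined to them by symbol only. Capitals mark matches on either strand to 3 motifs: TGACNNNGC (the core of an antioxidant response element), CCAAT (the box bound by NF-Y) and CCGGAAG (a core bound by ETS factors).
PSMD14: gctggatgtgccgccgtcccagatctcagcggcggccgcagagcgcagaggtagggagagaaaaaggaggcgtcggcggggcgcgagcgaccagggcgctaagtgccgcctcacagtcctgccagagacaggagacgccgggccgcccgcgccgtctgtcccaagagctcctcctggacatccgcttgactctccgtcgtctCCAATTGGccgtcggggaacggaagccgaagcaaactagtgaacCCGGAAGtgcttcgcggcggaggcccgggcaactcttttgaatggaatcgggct
PSMD1: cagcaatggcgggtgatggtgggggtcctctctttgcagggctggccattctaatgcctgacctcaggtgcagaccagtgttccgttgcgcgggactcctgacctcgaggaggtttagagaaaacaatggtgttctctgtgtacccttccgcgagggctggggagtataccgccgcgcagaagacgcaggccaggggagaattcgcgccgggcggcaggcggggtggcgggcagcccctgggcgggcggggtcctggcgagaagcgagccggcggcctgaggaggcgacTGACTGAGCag
PSMA4: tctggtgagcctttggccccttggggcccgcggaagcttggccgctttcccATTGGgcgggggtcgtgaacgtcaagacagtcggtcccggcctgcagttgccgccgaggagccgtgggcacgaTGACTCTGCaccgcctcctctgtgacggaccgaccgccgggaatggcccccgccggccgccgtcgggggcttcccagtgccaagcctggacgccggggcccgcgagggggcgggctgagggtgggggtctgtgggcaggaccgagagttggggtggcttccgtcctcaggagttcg
PSMD2: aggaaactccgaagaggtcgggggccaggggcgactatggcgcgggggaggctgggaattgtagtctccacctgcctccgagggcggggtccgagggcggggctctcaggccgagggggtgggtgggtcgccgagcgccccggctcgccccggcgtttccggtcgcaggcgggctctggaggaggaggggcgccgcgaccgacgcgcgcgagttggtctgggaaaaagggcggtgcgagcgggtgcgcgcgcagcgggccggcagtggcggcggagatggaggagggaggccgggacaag
In PSMD14 the capital run CCAATTGG holds a CCAAT on both strands, overlapping each other, and a CCGGAAG lies 4 bases before the start. The PSMD1 window has TGACTGAGC at 39 bases after the start, and the PSMA4 window has TGACTCTGC at 126 bases before it as well as a reverse-strand CCAAT. None of the 3 letter patterns occurs in the PSMD2 window. Among the 44 members, 38 had a promoter entry, with 46 starts in all. TGACNNNGC occurred in 14 of the 38 members (30.4% of their 46 promoters, against 13.3% of 35116 promoters of all genes). CCGGAAG occurred in 14 (30.4% of their promoters, against 10.3% of all promoters and 17.0% of the promoters of genes at 1 FPKM or more). CCAAT occurred in 18 (39.1% of their promoters, against 34.6% of all promoters). These are matches of letters in a fixed window and were not tested for binding.

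In DMSO, transcripts of the members spanned 3.13 FPKM (PSMB10) to 308 FPKM (PSMA7) in the first table, and 16.6 FPKM (PSMD5) to 433 FPKM (PSMA7) in the second. The median member was at 98.2 FPKM in the first table and 88.0 FPKM in the second. Per length, the core subunits were the more abundant transcripts. The 14 constitutive core genes had a median of 157 FPKM in the first DMSO library and 146 FPKM in the second, against 92.7 and 82.6 FPKM for the 17 regulatory particle genes. Chaperones were lower, with a median of 19.7 FPKM for the 19S chaperones and 39.4 FPKM for the 20S chaperones in the first DMSO library. The order of levels was nearly the same in the DMSO library of each table (Spearman's rho = 0.953 across the 44 genes, which share their libraries and are not replicates), and 40 of 44 were within 0.5 log2 between the tables. Where the neighbours in this order lie closer than that, their order is not resolved by the 2 libraries.

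Of 6 mesenchymal genes taken as U2OS markers, VIM, FN1, COL1A1 and SPARC were high throughout. The summed level of the 6 was 700.1 to 1436 FPKM in the first table and 1308 to 1696 FPKM in the second. RUNX2 was low, at 0.629 to 5.27 FPKM in the first table and 1.42 to 2.76 FPKM in the second. COL1A2 was at 0.0987 FPKM or less. The 8 markers of epithelial, blood, endothelial and liver cells summed to at most 2.20 FPKM in the first table and 5.42 FPKM in the second, and CD3E was listed at 0 in all 14 libraries. The tables give no read counts, so depth is unknown, but the spacing of their low values put each library at 0.559 (BIX-01294) to 1.25 (SAHA) times the depth of DMSO in the first table and at 0.678 (GSK343) to 0.812 (2-PCPA) times in the second. In the first 2-PCPA library, 10565 of 12804 genes were below DMSO, with a median log2 difference of -0.43 over all genes, and no other library had a median further from 0 than 0.06. Differences are therefore given relative to the median over all genes in the same library unless stated. They are on the log2(FPKM + 1) scale, which understates the differences of genes with low values. FPKM levels, and genes placed above or below DMSO, do not have that median subtracted. As in any bulk RNA, fewer cells of a kind and less RNA per cell cannot be told apart.

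For the 3 compounds with 2 replicates, no proteasome gene passed the test. In limma fits over 12603 genes, 0 of 44 members had an adjusted p under 0.05 with 2-PCPA, GSK343 or rapamycin, in a background of 0.0238%, 0.0159% and 0.0159% of all genes called. At an unadjusted p under 0.05 there were 4 of 44 members with 2-PCPA (7.48% of all genes), 0 with GSK343 (4.22%) and 4 with rapamycin (6.46%). Adjusted p-values of the members were 0.592 to 0.792 with 2-PCPA, 0.949 to 1 with GSK343 and 0.752 to 0.999 with rapamycin. A member's 95% interval reached 0.54 log2 to either side of its fold change at the median of the members. Fold changes of this fit, here and below, are against DMSO without subtracting the all-gene median unless stated. That median was -0.20 with 2-PCPA, 0.03 with GSK343 and -0.05 with rapamycin.

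Within that error, most members were below DMSO in both replicates of each compound. With 2-PCPA, 38 of 44 were (42.2% of all genes) and 0 were above in both (11.5%). With GSK343, 30 of 44 were below in both (26.7%) and 4 above in both (34.6%). With rapamycin, 38 of 44 were below in both (37.1%) and 2 above (25.5%). Set against the median gene of each library instead of against DMSO itself, 33 members were below in both replicates with 2-PCPA (31.8%), 32 with GSK343 (31.6%) and 35 with rapamycin (31.8%). The median member was at -0.23 and -0.16 log2 in the first and second 2-PCPA libraries, at -0.27 and -0.12 with GSK343, and at -0.28 and -0.16 with rapamycin. Abundant genes as a whole lay part of the way there. Of genes averaging 20 FPKM or more, 58.7% were below DMSO in both replicates with 2-PCPA, 33.5% with GSK343 and 47.1% with rapamycin, and 3.63%, 35.3% and 24.3% were above in both. Below the median gene in both replicates were 52.9%, 37.4% and 40.2% of them. Genes averaging 20 FPKM or more had medians of -0.15 and -0.04 with 2-PCPA, -0.03 and -0.01 with GSK343, and -0.06 and -0.03 with rapamycin. Fitted among those abundant genes only, the 2-PCPA member median was -0.090, against -0.19 in the fit over 12603 genes. The 3 compounds share their DMSO libraries, so a high value in 1 DMSO library lowers all 3 differences of a gene, and their likeness is not read as a result.

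**Figure D1:**
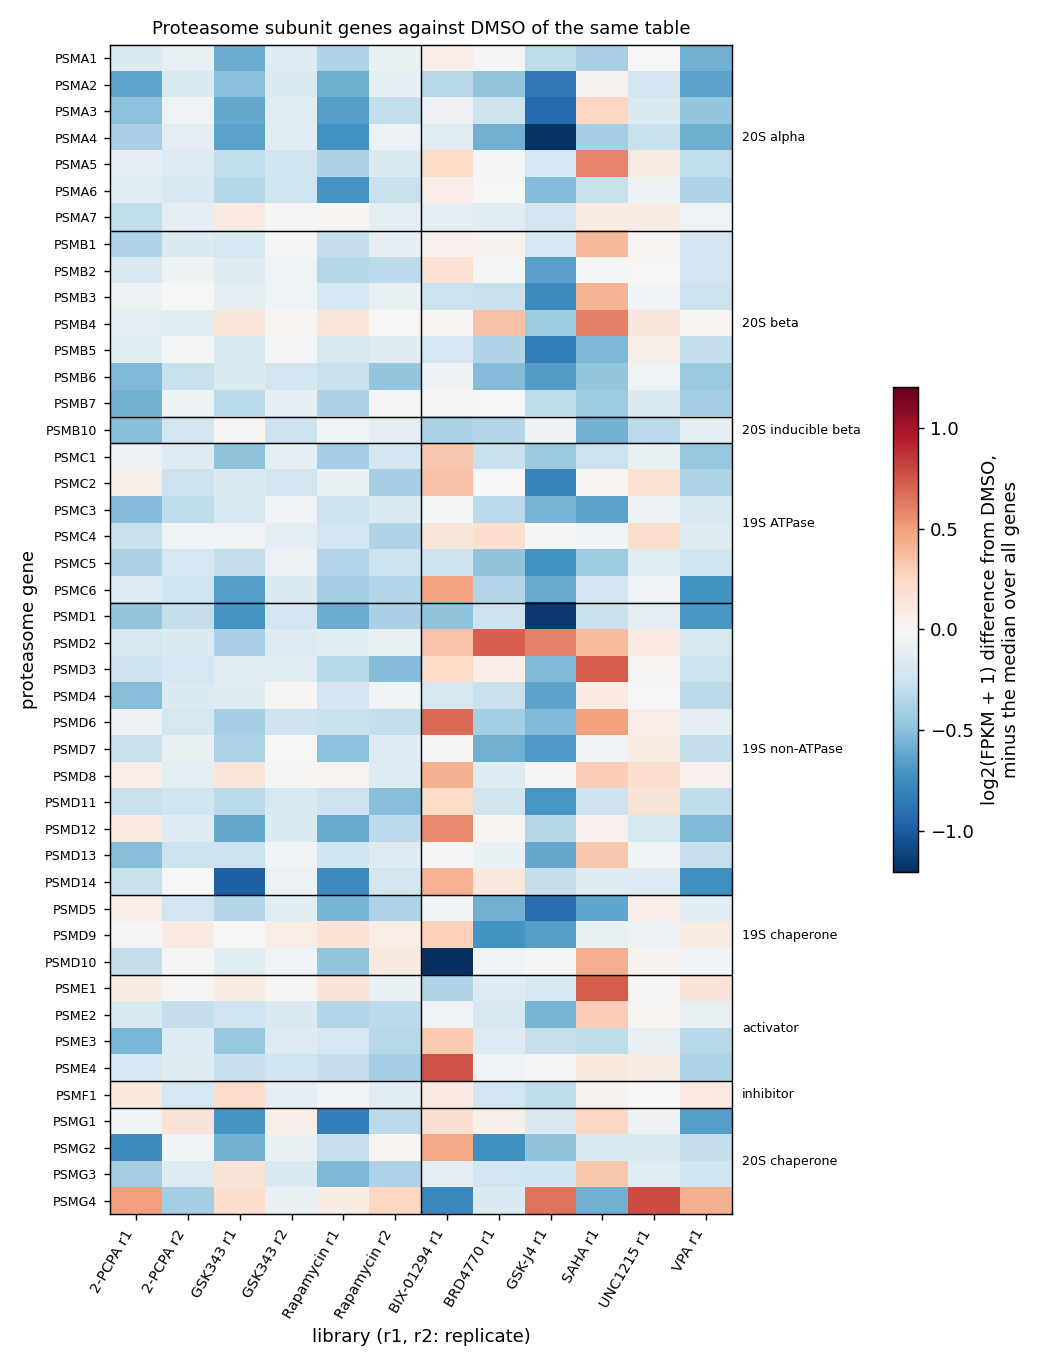
Heat map of the 44 members (rows, grouped by role) in each of the 12 compound libraries (columns), coloured by the log2(FPKM + 1) difference from DMSO of the same table minus the median over all genes, with blue below and red above 0. GSK-J4 is the bluest column (median -0.50) and UNC1215 the palest (median -0.01), and the second-replicate columns are paler than the first-replicate ones.

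Among single libraries, the proteasome genes were lowest with GSK-J4. In that library 22 of 44 members were at least 0.5 log2 below the median gene, in a background of 20.0% of all genes, and 2 were at least 0.5 above it, against 22.3%. The member median was -0.50, and it was -0.09 for all genes averaging 20 FPKM or more. All 14 constitutive core genes and 15 of 17 regulatory particle genes were below the median gene, with medians of -0.59 and -0.56. Both exceptions were non-ATPase subunits, PSMD2 at 0.59 and PSMD8 at 0.02. The 4 activators had a median of -0.24, with PSME2 lowest at -0.56 and PSME4 highest at -0.02. The 4 chaperones of the core had a median of -0.21 and lay on both sides of the median gene, with PSMG2 at -0.48 and PSMG4 at 0.65, the highest of the 44 members in that library. The 3 chaperones of the 19S particle had a median of -0.66. Depth in this library was 0.660 times that of DMSO, and its part in the result was not tested.

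VPA was next. There 8 of 44 members were at least 0.5 log2 lower (9.52% of all genes) and 0 were higher by that much (12.8%), and 38 of 44 lay below the median gene, with a median of -0.28. BRD4770 had 6 members lower by 0.5 log2 (16.7%) and 1 higher (17.9%), with a median of -0.18, against -0.10 for all genes averaging 20 FPKM or more. Among genes of that level alone, 1 member was lower by 0.5 log2 with BRD4770. The other 3 compounds left the member median near that of all genes: 0.04 with BIX-01294, 0.03 with SAHA and -0.01 with UNC1215. They differed in how far the members scattered, and in how far all genes did. The interquartile range of all genes was 0.36 with UNC1215, 0.75 with SAHA and 0.85 with BIX-01294. For genes averaging 20 FPKM or more it was 0.26, 0.65 and 0.63. With UNC1215, 0 members were lower by 0.5 log2 (6.27%) and 1 was higher (7.58%), and the interquartile range of the members was 0.18. With SAHA, 5 were lower (17.0%) and 4 higher (20.5%), with an interquartile range of 0.59, the widest of the 12 compound libraries. The 5 became 2 with a pseudocount of 5. With BIX-01294, 2 were lower (20.8%) and 3 higher (23.0%). In the first libraries of the replicated compounds the same counts were 9 lower and 0 higher with 2-PCPA (10.6% and 13.7% of all genes), 9 and 0 with GSK343 (12.3% and 16.5%), and 10 and 0 with rapamycin (11.0% and 13.3%). In their second libraries they were 0 and 0 with 2-PCPA (2.70% and 4.53%), 0 and 0 with GSK343 (1.83% and 3.42%), and 2 and 0 with rapamycin (4.15% and 7.43%). No test can be made on 1 library, so these are values of those libraries.

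Core and regulatory particle genes kept close to each other in most libraries. The regulatory median minus the core median lay between -0.09 and 0.09 log2 in 9 of the 12 compound libraries. BIX-01294 was the widest of the other 3, with 0.27: the 17 regulatory genes were at a median of 0.23 and the 14 core genes at -0.04. Summed FPKM of the regulatory genes was 0.939 of that of the core genes with BIX-01294, against 0.798 with DMSO. Depth in the BIX-01294 library was 0.559 times that of DMSO, and its part in this was not tested. BRD4770 had -0.16 between the medians but 0.03 between the means. The second rapamycin library had -0.15 and the first 0.09, so the replicates lay on opposite sides of 0.

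**Figure D2:**
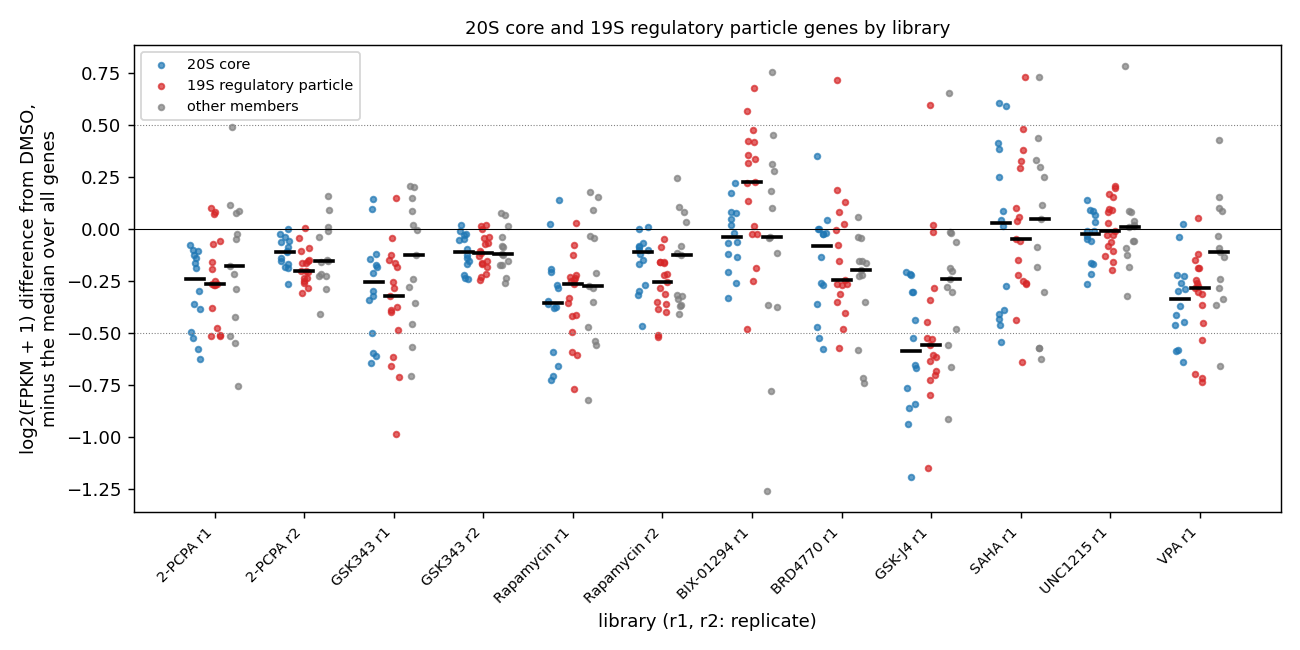
Each point is 1 member in 1 compound library, as the log2(FPKM + 1) difference from DMSO of the same table minus the median over all genes, in blue for the 14 core genes, red for the 17 regulatory particle genes and grey for the other 13; black bars are medians and dotted lines lie at 0.5 log2 to either side of 0. Red lies above blue with BIX-01294 (medians 0.23 and -0.04), and both lie far below 0 with GSK-J4 (-0.56 and -0.59).

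The alpha subunits form the outer rings of the core and its gate. All 7 were below DMSO in both 2-PCPA libraries and in both rapamycin libraries. In both replicates, 42.2% of all genes were below DMSO with 2-PCPA and 37.1% with rapamycin. Of genes averaging 20 FPKM or more, 58.7% and 47.1% were. In the first 2-PCPA library alone, 10565 of 12804 genes were below DMSO. Median relative differences of the 7 were -0.30 and -0.11 with 2-PCPA and -0.59 and -0.12 with rapamycin. PSMA4 was one of the furthest. PSMA4 had 128 FPKM with 2-PCPA, 150.0 with GSK343, 131 with rapamycin, 216 with BIX-01294, 151 with BRD4770, 99.3 with GSK-J4, 178 with SAHA, 194 with UNC1215 and 152 with VPA, against 227 with DMSO in the first table. It had 149.8 FPKM with 2-PCPA, 148 with GSK343 and 151 with rapamycin, against 161 with DMSO in the second. It was below DMSO in all 12 compound libraries, most with GSK-J4. The 9 compound libraries of the first table share 1 DMSO library, where PSMA4 was higher (227 FPKM) than in the second (161 FPKM). A high value there would place all 9 below DMSO. The fold change of PSMA4 was -0.36 ± 0.25 with GSK343 (log2, SE, adjusted p = 0.949). PSMA3 had 88.5 FPKM with 2-PCPA, 114 with GSK343, 102 with rapamycin, 168 with BIX-01294, 140.4 with BRD4770, 88.3 with GSK-J4, 209.8 with SAHA, 156 with UNC1215 and 123 with VPA, against 169 with DMSO. In the second table PSMA3 had 160.3 FPKM with 2-PCPA, 152 with GSK343 and 130.5 with rapamycin, against 164 with DMSO. It was low in FPKM with GSK-J4 and 2-PCPA and was above DMSO with SAHA only. Relative to the median gene it lay at -0.94 with GSK-J4. In the first libraries of 2-PCPA, GSK343 and rapamycin it lay at -0.50, -0.61 and -0.66. PSMA2 had 62.2 FPKM with 2-PCPA, 95.3 with GSK343, 82.6 with rapamycin, 108 with BIX-01294, 93.1 with BRD4770, 71.6 with GSK-J4, 139.8 with SAHA, 115 with UNC1215 and 83.7 with VPA, against 130.4 with DMSO. PSMA2 had, in the second table, 88.5 FPKM with 2-PCPA, 89.7 with GSK343 and 91.4 with rapamycin, against 100.0 with DMSO. With 2-PCPA its fold change was -0.62 ± 0.26 (log2, SE, adjusted p = 0.592), or -0.41 relative to the all-gene median. PSMA2 was above DMSO with SAHA alone. PSMA6 had 96.5 FPKM with 2-PCPA, 116 with GSK343, 83.1 with rapamycin, 157 with BIX-01294, 142 with BRD4770, 99.2 with GSK-J4, 122 with SAHA, 140.4 with UNC1215 and 111 with VPA, against 142 with DMSO. The second replicates of PSMA6 had 117 FPKM with 2-PCPA, 114 with GSK343 and 108 with rapamycin, against 133 with DMSO. Its fold change with rapamycin was -0.53 ± 0.23 (log2, SE, adjusted p = 0.752), and it was above DMSO only with BIX-01294. The remaining alpha subunits, PSMA1, PSMA5 and PSMA7, varied 1.66-fold, 2.31-fold and 1.84-fold between their lowest and highest libraries of the first table.

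Beta subunits line the inner rings. Of the 3 that carry the proteolytic sites, PSMB5 is the chymotrypsin-like, PSMB6 the caspase-like and PSMB7 the trypsin-like one. PSMB5 had 73.5 FPKM with 2-PCPA, 99.9 with GSK343, 91.6 with rapamycin, 98.8 with BIX-01294, 84.8 with BRD4770, 61.0 with GSK-J4, 77.9 with SAHA, 118 with UNC1215 and 90.1 with VPA, against 109.7 with DMSO in the first table. For PSMB5 the second table gave 133 FPKM with 2-PCPA, 136 with GSK343 and 119 with rapamycin, against 135 with DMSO. PSMB5 was lowest with GSK-J4, and only with UNC1215 and in the second GSK343 library was it above DMSO. PSMB6 had 59.5 FPKM with 2-PCPA, 107 with GSK343, 92.2 with rapamycin, 116 with BIX-01294, 80.3 with BRD4770, 73.3 with GSK-J4, 87.7 with SAHA, 116 with UNC1215 and 85.6 with VPA, against 116 with DMSO. PSMB6 of the second replicate had 131 FPKM with 2-PCPA, 136 with GSK343 and 111 with rapamycin, against 157 with DMSO. It was below DMSO in all 12 compound libraries, which share 2 DMSO libraries, though by under 1 FPKM with BIX-01294 and UNC1215. Its fold change with 2-PCPA was -0.61 ± 0.27 (log2, SE, adjusted p = 0.592), or -0.41 relative to the all-gene median. PSMB7 had 92.1 FPKM with 2-PCPA, 154 with GSK343, 137 with rapamycin, 192 with BIX-01294, 185 with BRD4770, 151 with GSK-J4, 143 with SAHA, 171 with UNC1215 and 141 with VPA, against 187 with DMSO. Second-replicate PSMB7 values were 124 FPKM with 2-PCPA, 121 with GSK343 and 127 with rapamycin, against 128 with DMSO. PSMB7 was above DMSO only with BIX-01294. With SAHA the 3 catalytic genes lay below the median gene, at -0.54 for PSMB5, -0.46 for PSMB6 and -0.43 for PSMB7. Of the 4 structural beta genes PSMB1, PSMB3 and PSMB4 lay above it, at 0.39, 0.41 and 0.61, and PSMB2 was at 0.01. Low values there were not particular to the catalytic genes, with PSMC5 at -0.44 and PSMA4 at -0.41. In that 1 library 21 of 44 members lay below the median gene and 23 above it. The interquartile range of all genes was 0.75. PSMB4 itself had 129.7 FPKM with 2-PCPA, 216 with GSK343, 199 with rapamycin, 199 with BIX-01294, 239.5 with BRD4770, 139.7 with GSK-J4, 299 with SAHA, 214 with UNC1215 and 193 with VPA, against 189 with DMSO. In the second table PSMB4 had 245 FPKM with 2-PCPA, 276 with GSK343 and 263 with rapamycin, against 269 with DMSO. PSMB4 was above DMSO in 7 of the 9 compound libraries of the first table and lay below it with 2-PCPA and GSK-J4. Relative to the median gene it was at -0.10 and -0.44 in those libraries. The 9 compound libraries share 1 DMSO library, where PSMB4 was lower (189 FPKM) than in the second (269 FPKM). A low value there would raise all 9 differences. In the second table PSMB4 was above DMSO with GSK343 only. The last of the beta genes, PSMB2, had its lowest value with GSK-J4, at -0.65.

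The inducible beta subunits were measured in full only in the second table. PSMB8, which replaces PSMB5, had 39.8 FPKM with 2-PCPA, 37.0 with GSK343 and 34.3 with rapamycin, against 32.3 with DMSO. PSMB9, which replaces PSMB6, had 12.1 FPKM with 2-PCPA, 11.4 with GSK343 and 8.36 with rapamycin, against 13.5 with DMSO. PSMB8 was above DMSO with all 3 compounds and PSMB9 below DMSO with all 3. The 3 compounds share that 1 DMSO library, so its value bears on all 3 differences of a gene. As a share of the constitutive partner, PSMB8 was 29.9% of PSMB5 with 2-PCPA, 27.3% with GSK343 and 28.7% with rapamycin, against 23.9% with DMSO. PSMB9 was 9.21% of PSMB6 with 2-PCPA, 8.39% with GSK343 and 7.53% with rapamycin, against 8.60% with DMSO. These shares come from 1 library each. In the first table PSMB9 was listed at 0 in all 10 libraries, and PSMB8 in all but GSK-J4, where it had 0.867 FPKM. Both genes lie in the major histocompatibility complex, and 15 of the 23 neighbouring genes with at least 1 FPKM in the second table, TAP1, TAP2 and the ribosomal protein gene RPS18 among them, were also listed at 0 in all 10 libraries of the first, so no absence of PSMB8 or PSMB9 is read from it. PSMB10, which replaces PSMB7 and lies elsewhere in the genome, had 1.14 FPKM with 2-PCPA, 3.33 with GSK343, 2.86 with rapamycin, 2.32 with BIX-01294, 2.22 with BRD4770, 2.97 with GSK-J4, 1.89 with SAHA, 2.39 with UNC1215 and 2.85 with VPA, against 3.13 with DMSO. The second table gave 16.4 FPKM with 2-PCPA, 16.1 with GSK343 and 17.3 with rapamycin, against 19.2 with DMSO. PSMB10 was thus the member whose level differed most between the DMSO libraries of the 2 tables, and its fold changes were -0.58 ± 0.27, -0.09 ± 0.27 and -0.12 ± 0.27 with 2-PCPA, GSK343 and rapamycin (log2, SE).

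The 6 ATPases form the ring of the regulatory particle that unfolds substrates. All 6 were below the median gene in both GSK343 libraries and in both rapamycin libraries. Of all genes, 31.6% and 31.8% were. Of genes averaging 20 FPKM or more, 37.4% and 40.2% were. PSMC3 had 116 FPKM with 2-PCPA, 204 with GSK343, 180.2 with rapamycin, 229.6 with BIX-01294, 179 with BRD4770, 152 with GSK-J4, 149 with SAHA, 221 with UNC1215 and 198 with VPA, against 224 with DMSO. PSMC3 had, in the second table, 185 FPKM with 2-PCPA, 224 with GSK343 and 199.8 with rapamycin, against 228 with DMSO. Its fold change with 2-PCPA, -0.62 ± 0.25 (log2, SE, adjusted p = 0.592), was the lowest of all 44 members there. Relative to the all-gene median that fold change was -0.42. SAHA was the library where PSMC3 stood lowest among single libraries relative to the median gene (-0.64). PSMC6 had 71.3 FPKM with 2-PCPA, 70.3 with GSK343, 76.8 with rapamycin, 157 with BIX-01294, 83.9 with BRD4770, 70.8 with GSK-J4, 96.2 with SAHA, 109 with UNC1215 and 65.6 with VPA, against 108 with DMSO. The second replicates of PSMC6 had 82.6 FPKM with 2-PCPA, 87.1 with GSK343 and 74.3 with rapamycin, against 97.0 with DMSO. It was above DMSO with BIX-01294 and within 1 FPKM of it with UNC1215. PSMC4 had 40.1 FPKM with 2-PCPA, 66.3 with GSK343, 54.0 with rapamycin, 75.4 with BIX-01294, 74.8 with BRD4770, 65.5 with GSK-J4, 66.1 with SAHA, 78.4 with UNC1215 and 59.6 with VPA, against 65.9 with DMSO. For PSMC4 the second table gave 80.6 FPKM with 2-PCPA, 77.5 with GSK343 and 62.9 with rapamycin, against 82.6 with DMSO. It differed from the other ATPases in the GSK-J4 library, where it lay at -0.01 while PSMC1, PSMC2, PSMC3, PSMC5 and PSMC6 lay between -0.80 and -0.45.

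Non-ATPase subunits include the scaffolds PSMD1 and PSMD2 of the base and the lid with the deubiquitinase PSMD14. PSMD14, which cuts the ubiquitin chain from the substrate, had 63.4 FPKM with 2-PCPA, 53.8 with GSK343, 57.8 with rapamycin, 145 with BIX-01294, 113 with BRD4770, 85.2 with GSK-J4, 97.0 with SAHA, 95.3 with UNC1215 and 62.2 with VPA, against 104 with DMSO in the first table. Second-replicate PSMD14 values were 79.4 FPKM with 2-PCPA, 75.8 with GSK343 and 66.0 with rapamycin, against 78.8 with DMSO. In FPKM of the first table it was lowest with GSK343, rapamycin, VPA and 2-PCPA and was above DMSO with BIX-01294 and BRD4770. Relative to the median gene, PSMD14 lay at -0.27 with 2-PCPA there and at -0.28 with GSK-J4. The GSK343 value of the first table (-0.98) was not matched in the second (-0.07), and the fold changes were -0.50 ± 0.26 with GSK343 and -0.54 ± 0.26 with rapamycin (log2, SE, adjusted p = 0.949 and 0.757). PSMD1 had 38.0 FPKM with 2-PCPA, 45.2 with GSK343, 45.4 with rapamycin, 53.6 with BIX-01294, 59.6 with BRD4770, 32.0 with GSK-J4, 62.1 with SAHA, 68.9 with UNC1215 and 44.3 with VPA, against 72.1 with DMSO. In the second table PSMD1 had 51.5 FPKM with 2-PCPA, 53.8 with GSK343 and 46.7 with rapamycin, against 62.7 with DMSO. It was below DMSO in all 12 compound libraries, which share 2 DMSO libraries. Its fold changes were -0.59 ± 0.24 with 2-PCPA, -0.44 ± 0.24 with GSK343 and -0.54 ± 0.24 with rapamycin (log2, SE, adjusted p = 0.592, 0.949 and 0.752). Relative to the all-gene median, the 2-PCPA fold change of PSMD1 was -0.39. PSMD2, its partner scaffold, had 86.5 FPKM with 2-PCPA, 106 with GSK343, 117 with rapamycin, 177 with BIX-01294, 219 with BRD4770, 203 with GSK-J4, 181 with SAHA, 147 with UNC1215 and 118 with VPA, against 134 with DMSO. PSMD2 had, in the second table, 159.6 FPKM with 2-PCPA, 161 with GSK343 and 164 with rapamycin, against 178 with DMSO. PSMD2 was above DMSO with BIX-01294, BRD4770, GSK-J4, SAHA and UNC1215, and with GSK-J4 the 2 scaffolds lay on opposite sides of DMSO.

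**Figure D3:**
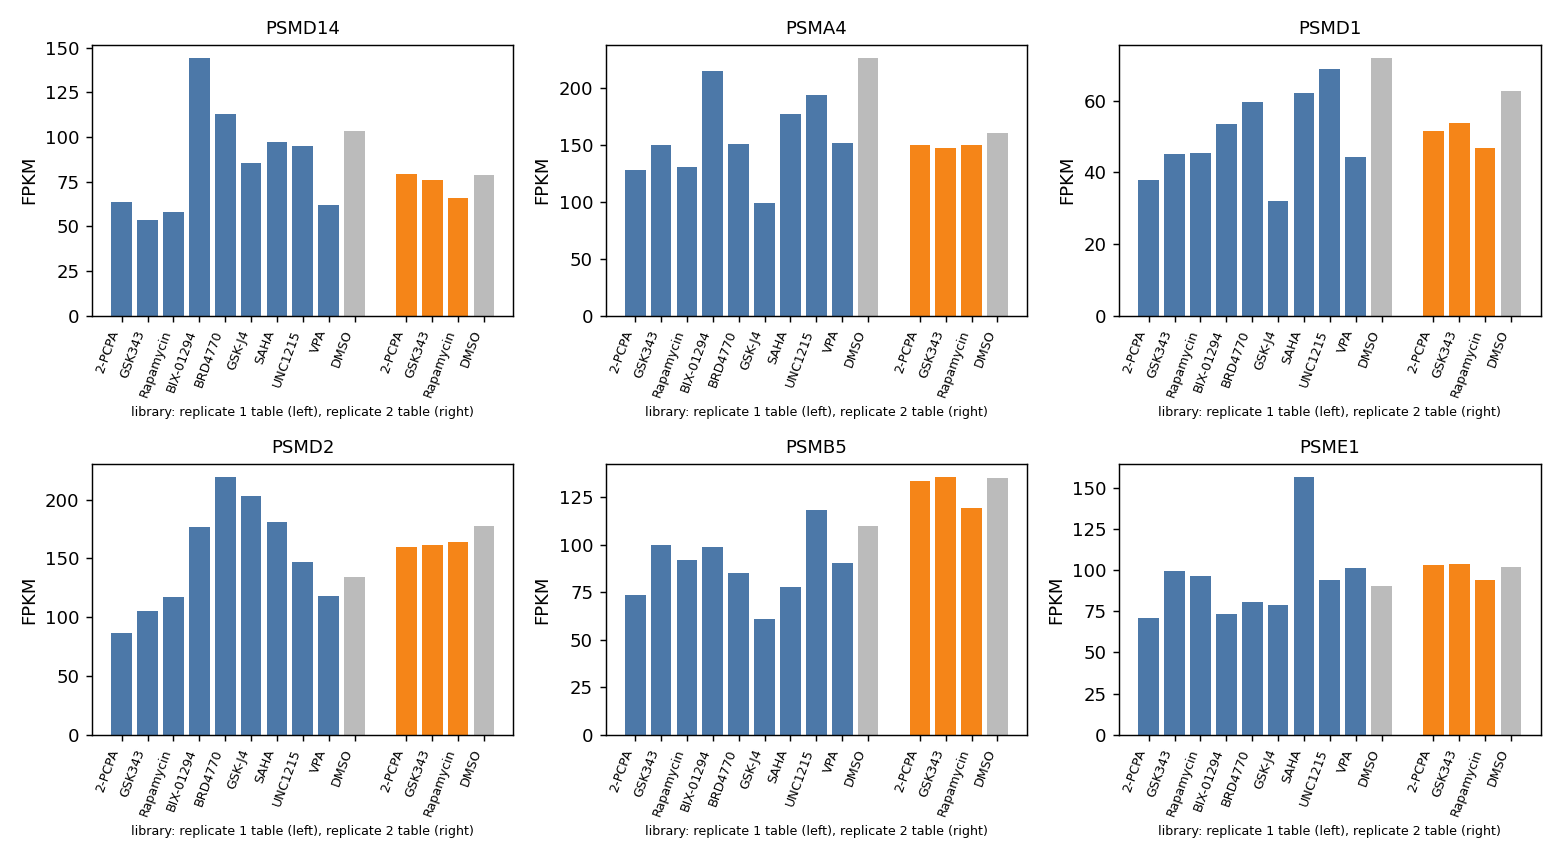
Bars give the FPKM of 6 members in each library, with the 10 libraries of the first table on the left (compounds blue, DMSO grey) and the 4 of the second on the right (compounds orange, DMSO grey); each bar is 1 library. PSMA4 and PSMD1 are lowest with GSK-J4 (99.3 and 32.0 FPKM), PSMD14 is lowest with GSK343 in the first table (53.8 FPKM), and PSMD2 is highest with BRD4770 (219 FPKM).

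Other lid subunits followed more than 1 pattern. PSMD12 had 51.2 FPKM with 2-PCPA, 43.3 with GSK343, 40.3 with rapamycin, 100.4 with BIX-01294, 65.3 with BRD4770, 50.9 with GSK-J4, 69.8 with SAHA, 57.8 with UNC1215 and 44.5 with VPA, against 64.6 with DMSO. The second replicates of PSMD12 had 53.6 FPKM with 2-PCPA, 53.5 with GSK343 and 46.6 with rapamycin, against 59.3 with DMSO. PSMD6 had 40.2 FPKM with 2-PCPA, 44.5 with GSK343, 45.1 with rapamycin, 95.3 with BIX-01294, 42.4 with BRD4770, 39.4 with GSK-J4, 82.8 with SAHA, 61.9 with UNC1215 and 52.5 with VPA, against 56.9 with DMSO. Both were well above DMSO with BIX-01294 and were also above it with SAHA. PSMD6 was above DMSO with UNC1215 too, and PSMD12 slightly so with BRD4770. For PSMD6 the second table gave 55.7 FPKM with 2-PCPA, 54.5 with GSK343 and 51.3 with rapamycin, against 64.1 with DMSO. Every compound was thus below that 1 shared DMSO library. PSMD3 had 67.4 FPKM with 2-PCPA, 103 with GSK343, 82.5 with rapamycin, 133 with BIX-01294, 114 with BRD4770, 75.4 with GSK-J4, 188 with SAHA, 114 with UNC1215 and 91.2 with VPA, against 109 with DMSO. Second-replicate PSMD3 values were 120.2 FPKM with 2-PCPA, 127 with GSK343 and 93.9 with rapamycin, against 138 with DMSO. It was highest with SAHA, and with rapamycin its fold change was -0.47 ± 0.24 (log2, SE, adjusted p = 0.757). PSMD13 had 28.7 FPKM with 2-PCPA, 48.6 with GSK343, 45.5 with rapamycin, 57.5 with BIX-01294, 52.9 with BRD4770, 36.5 with GSK-J4, 73.4 with SAHA, 56.6 with UNC1215 and 46.6 with VPA, against 56.2 with DMSO. The other replicates of PSMD13 had 45.5 FPKM with 2-PCPA, 53.6 with GSK343 and 47.7 with rapamycin, against 54.5 with DMSO. In FPKM of the first table it was highest with SAHA and lowest with 2-PCPA. Relative to the median gene it was lowest with GSK-J4 (-0.61), and lay at -0.51 in the first 2-PCPA library. Its 2-PCPA fold change over both replicates was -0.60 ± 0.24 (log2, SE, adjusted p = 0.592), or -0.40 relative to the all-gene median. PSMD8, a lid subunit, had 91.1 FPKM with 2-PCPA, 134 with GSK343, 114 with rapamycin, 163 with BIX-01294, 104 with BRD4770, 118 with GSK-J4, 149 with SAHA, 137 with UNC1215 and 122 with VPA, against 117 with DMSO. PSMD8 had, in the second table, 146 FPKM with 2-PCPA, 159.8 with GSK343 and 137 with rapamycin, against 157 with DMSO. It was above DMSO in 6 of the 9 compound libraries of the first table, which share 1 DMSO library. PSMD8 was lower there (117 FPKM) than in the second DMSO library (157 FPKM). A low value there would raise all 9 differences. Unlike most members it was above DMSO in both GSK343 libraries, as were 34.6% of all genes. With 2-PCPA and rapamycin it was below DMSO in the second table. The last 3 non-ATPase subunits, the ubiquitin receptor PSMD4 and the lid subunits PSMD7 and PSMD11, lay at -0.63, -0.68 and -0.70 log2 relative to the median gene with GSK-J4, and PSMD11 at -0.51 in the second rapamycin library.

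PSMD5, PSMD9 and PSMD10 are chaperones that assemble the ATPase ring and leave the finished particle. PSMD5 had 12.6 FPKM with 2-PCPA, 13.1 with GSK343, 10.3 with rapamycin, 16.7 with BIX-01294, 10.6 with BRD4770, 8.27 with GSK-J4, 10.7 with SAHA, 17.9 with UNC1215 and 14.9 with VPA, against 16.4 with DMSO. The second replicates of PSMD5 had 14.2 FPKM with 2-PCPA, 15.4 with GSK343 and 12.4 with rapamycin, against 16.6 with DMSO. PSMD5 was lowest with GSK-J4, and its fold change with rapamycin was -0.51 ± 0.20 (log2, SE, adjusted p = 0.752). PSMD9 had 14.1 FPKM with 2-PCPA, 20.3 with GSK343, 21.4 with rapamycin, 25.2 with BIX-01294, 11.5 with BRD4770, 12.1 with GSK-J4, 19.3 with SAHA, 19.4 with UNC1215 and 21.1 with VPA, against 19.7 with DMSO. For PSMD9 the second table gave 22.0 FPKM with 2-PCPA, 21.9 with GSK343 and 21.2 with rapamycin, against 20.5 with DMSO. It was above DMSO with all 3 compounds of the second table, which share 1 DMSO library, and was low with BRD4770 and GSK-J4. PSMD10 (gankyrin) had 13.0 FPKM with 2-PCPA, 20.8 with GSK343, 14.9 with rapamycin, 9.03 with BIX-01294, 21.3 with BRD4770, 21.9 with GSK-J4, 31.5 with SAHA, 23.4 with UNC1215 and 21.6 with VPA, against 22.1 with DMSO. Second-replicate PSMD10 values were 21.9 FPKM with 2-PCPA, 21.6 with GSK343 and 23.3 with rapamycin, against 22.0 with DMSO. With BIX-01294 it lay at -1.26, the lowest value of any member in any library, and with GSK-J4 it was at its DMSO level. Reads of an antisense gene of PSMD5, PSMD6 or PSMG3 could not be told apart from those of the member if counting ignored strand, which the sources used here do not state; the antisense genes in the tables reached at most 5.58 FPKM (PSMD5-AS1, second table).

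The 20S chaperones PSMG1, PSMG2, PSMG3 and PSMG4 help build the alpha ring. PSMG1 had 13.4 FPKM with 2-PCPA, 11.7 with GSK343, 9.87 with rapamycin, 22.7 with BIX-01294, 19.8 with BRD4770, 16.7 with GSK-J4, 23.8 with SAHA, 18.8 with UNC1215 and 11.8 with VPA, against 19.1 with DMSO. In the second table PSMG1 had 21.6 FPKM with 2-PCPA, 20.4 with GSK343 and 14.8 with rapamycin, against 19.2 with DMSO. Its rapamycin libraries were both below DMSO, with a fold change of -0.62 ± 0.24 (log2, SE, adjusted p = 0.752), while GSK343 and 2-PCPA were below DMSO in the first table and above it in the second. PSMG2, the partner of PSMG1, had 47.1 FPKM with 2-PCPA, 75.5 with GSK343, 85.6 with rapamycin, 155 with BIX-01294, 64.2 with BRD4770, 77.7 with GSK-J4, 99.2 with SAHA, 98.1 with UNC1215 and 89.4 with VPA, against 108 with DMSO. PSMG2 had, in the second table, 87.2 FPKM with 2-PCPA, 85.1 with GSK343 and 89.4 with rapamycin, against 89.2 with DMSO. It was lowest with 2-PCPA and BRD4770 and highest with BIX-01294. PSMG4 had 10.4 FPKM with 2-PCPA, 12.0 with GSK343, 10.2 with rapamycin, 5.67 with BIX-01294, 8.73 with BRD4770, 16.3 with GSK-J4, 6.65 with SAHA, 18.4 with UNC1215 and 13.9 with VPA, against 9.97 with DMSO. The second replicates of PSMG4 had 21.7 FPKM with 2-PCPA, 27.7 with GSK343 and 33.9 with rapamycin, against 29.1 with DMSO. Its level differed between the DMSO libraries of the 2 tables, and among single libraries it was highest with UNC1215 and GSK-J4 and lowest with BIX-01294 and SAHA. PSMG3 lay between 32.6 FPKM with 2-PCPA and 78.2 FPKM with SAHA in the first table.

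Activators and the inhibitor bind the ends of the core in place of the regulatory particle. PSME1 and PSME2 form the interferon-responsive activator PA28, PSME3 the nuclear PA28 gamma, and PSME4 the activator PA200, while PSMF1 is the inhibitor PI31. PSME1 had 70.9 FPKM with 2-PCPA, 99.7 with GSK343, 96.4 with rapamycin, 73.1 with BIX-01294, 80.9 with BRD4770, 78.8 with GSK-J4, 157 with SAHA, 94.0 with UNC1215 and 101 with VPA, against 90.6 with DMSO. For PSME1 the second table gave 103 FPKM with 2-PCPA, 104 with GSK343 and 94.2 with rapamycin, against 102 with DMSO. It was highest with SAHA, at 0.73 relative to the median gene, the top member of that library. PSME2 had 86.9 FPKM with 2-PCPA, 117 with GSK343, 99.7 with rapamycin, 135 with BIX-01294, 115 with BRD4770, 90.5 with GSK-J4, 170.4 with SAHA, 139 with UNC1215 and 125 with VPA, against 133 with DMSO. Second-replicate PSME2 values were 119.9 FPKM with 2-PCPA, 131 with GSK343 and 115 with rapamycin, against 146 with DMSO. Like PSME1, it was highest with SAHA. PSME4 had 16.5 FPKM with 2-PCPA, 22.4 with GSK343, 20.5 with rapamycin, 47.2 with BIX-01294, 25.5 with BRD4770, 26.1 with GSK-J4, 29.8 with SAHA, 28.9 with UNC1215 and 20.4 with VPA, against 26.4 with DMSO. For PSME4, second libraries had 22.5 FPKM with 2-PCPA, 21.2 with GSK343 and 18.1 with rapamycin, against 24.9 with DMSO. BIX-01294 was the library where it was highest, and there PSME3 also lay above DMSO, at 61.4 FPKM with BIX-01294 against 47.3 FPKM with DMSO. PSMF1 had 18.5 FPKM with 2-PCPA, 28.0 with GSK343, 21.5 with rapamycin, 26.1 with BIX-01294, 19.7 with BRD4770, 18.8 with GSK-J4, 25.0 with SAHA, 24.1 with UNC1215 and 25.2 with VPA, against 23.3 with DMSO. PSMF1 had, in the second table, 19.9 FPKM with 2-PCPA, 21.6 with GSK343 and 20.7 with rapamycin, against 23.2 with DMSO. It varied 1.52-fold between its lowest and highest libraries of the first table, the smallest ratio among the 44 members.

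**Figure D4:**
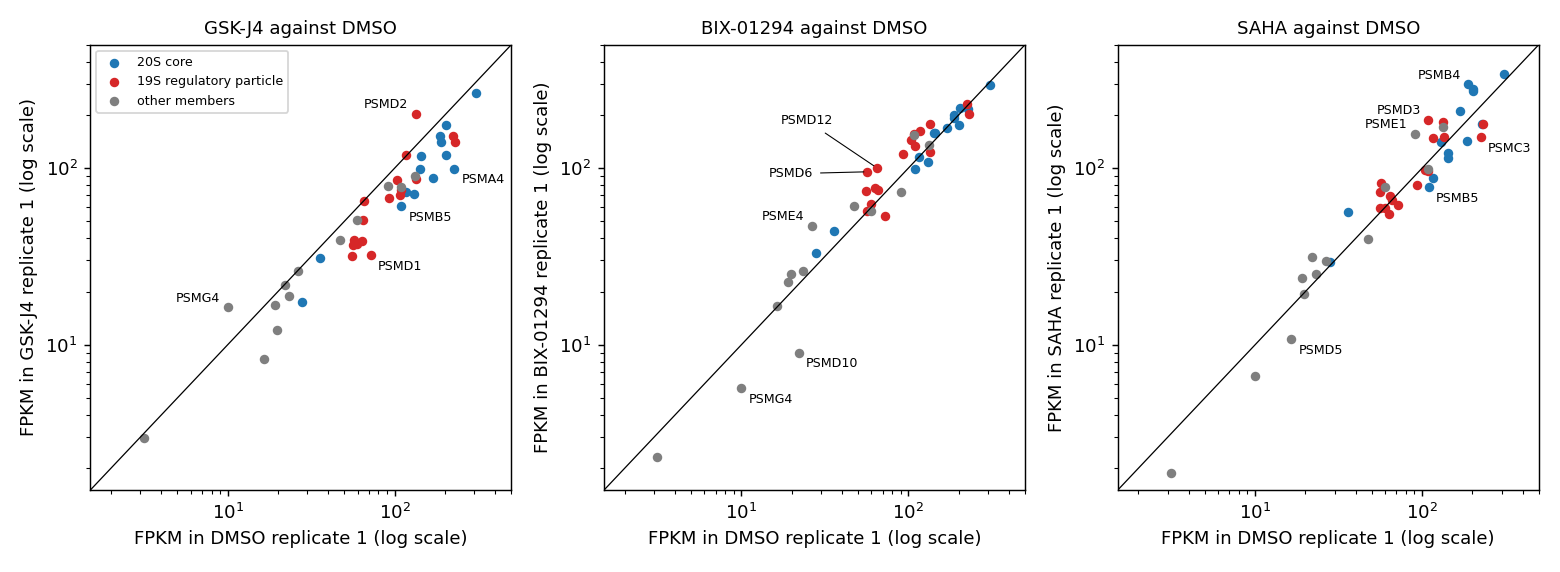
Each point is 1 of the 44 members, with its FPKM in the compound library (vertical, log scale) against its FPKM in the first DMSO library (horizontal, log scale) for GSK-J4, BIX-01294 and SAHA; core genes are blue, regulatory particle genes red, others grey, and the line marks equal levels. Most points lie under the line with GSK-J4 (41 of 44), most lie over it with BIX-01294 (29 of 44), and with SAHA they lie on both sides (24 over and 20 under).

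Genes that work with the proteasome but lie outside the symbol rule were taken from 4 lists of 33 genes in all. They were 10 of the NRF1 pathway, 12 bound to proteasomes or their assembly, 5 ubiquitin shuttle receptors and 6 ubiquitin or E1 genes. The list of 12 holds ADRM1 and SHFM1, since the 17 regulatory particle genes are only those whose symbols match the rule. With 2-PCPA, GSK343 and rapamycin 0 of the 33 passed the limma test, and 17, 10 and 13 were below DMSO in both replicates. Those counts are 51.5%, 30.3% and 39.4% of the lists, near the 42.2%, 26.7% and 37.1% of all genes. With GSK-J4, 4 were at least 0.5 log2 lower than the median gene (20.0% of all genes) and 4 higher (22.3%), with a median of 0.03, against the members' -0.50. NFE2L1, which encodes NRF1, had 46.1 FPKM with 2-PCPA, 59.4 with GSK343, 60.4 with rapamycin, 36.3 with BIX-01294, 84.5 with BRD4770, 84.6 with GSK-J4, 52.2 with SAHA, 56.4 with UNC1215 and 65.7 with VPA, against 62.8 with DMSO. The second replicates of NFE2L1 had 71.5 FPKM with 2-PCPA, 66.0 with GSK343 and 66.1 with rapamycin, against 64.8 with DMSO. It was highest with BRD4770 and GSK-J4 and lowest with BIX-01294. MAFF, a small MAF partner, had 8.14 FPKM with 2-PCPA, 13.7 with GSK343, 19.9 with rapamycin, 128 with BIX-01294, 49.4 with BRD4770, 42.8 with GSK-J4, 13.2 with SAHA, 4.71 with UNC1215 and 14.1 with VPA, against 4.01 with DMSO. For MAFF the second table gave 13.6 FPKM with 2-PCPA, 12.1 with GSK343 and 25.8 with rapamycin, against 7.99 with DMSO. MAFF was above DMSO in all 12 compound libraries, which share 2 DMSO libraries. Its fold change with rapamycin was 1.82 ± 0.27 (log2, SE, adjusted p = 0.152). MAFK, another small MAF, had 32.8 FPKM with 2-PCPA, 67.4 with GSK343, 97.2 with rapamycin, 146 with BIX-01294, 107 with BRD4770, 128 with GSK-J4, 59.7 with SAHA, 45.1 with UNC1215 and 87.6 with VPA, against 39.9 with DMSO. With rapamycin its fold change was 0.91 ± 0.29 (log2, SE, adjusted p = 0.678). Relative to the median gene, MAFK lay at 1.33 in the first rapamycin library and 0.59 in the second. Relative to the median gene, MAFG, the other small MAF gene, lay at 0.56 log2 in the first 2-PCPA library, 0.10 in the second and 1.08 with BIX-01294. NFE2L2, a relative of NFE2L1, lay at 0.76 log2 with BIX-01294 and 0.57 with UNC1215.

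POMP, the maturation factor of the core, had 35.2 FPKM with 2-PCPA, 38.8 with GSK343, 38.0 with rapamycin, 68.4 with BIX-01294, 57.8 with BRD4770, 57.0 with GSK-J4, 62.9 with SAHA, 62.0 with UNC1215 and 39.6 with VPA, against 54.2 with DMSO. Second-replicate POMP values were 38.3 FPKM with 2-PCPA, 38.1 with GSK343 and 37.0 with rapamycin, against 37.8 with DMSO. It was low with 2-PCPA, GSK343, rapamycin and VPA in the first table and near DMSO in the second. Relative to the median gene, POMP lay in the first table at -0.18 with 2-PCPA and -0.52 with GSK343. With rapamycin and VPA it lay at -0.44 and -0.45 there. VCP, the segregase that hands substrates to the proteasome, had 87.3 FPKM with 2-PCPA, 129 with GSK343, 116 with rapamycin, 118 with BIX-01294, 125 with BRD4770, 94.9 with GSK-J4, 118 with SAHA, 147 with UNC1215 and 129 with VPA, against 147 with DMSO. The second VCP values were 134 FPKM with 2-PCPA, 142 with GSK343 and 118 with rapamycin, against 141 with DMSO. UBB, a polyubiquitin gene, had 495 FPKM with 2-PCPA, 672 with GSK343, 676 with rapamycin, 679 with BIX-01294, 604 with BRD4770, 154 with GSK-J4, 966 with SAHA, 566 with UNC1215 and 687 with VPA, against 581 with DMSO. In the second table UBB had 478 FPKM with 2-PCPA, 509 with GSK343 and 553 with rapamycin, against 479 with DMSO. In the first table UBB was lowest with GSK-J4 and highest with SAHA. ZFAND2A, a stress-induced proteasome-binding protein, was at 44.2 FPKM with BIX-01294 and 25.0 FPKM with GSK-J4, against 10.6 FPKM with DMSO. UCHL5, a proteasome-bound deubiquitinase, was at 2.89 FPKM with GSK343 and 12.0 FPKM with SAHA, against 6.56 FPKM with DMSO. In the second table UCHL5 had 6.11 FPKM with GSK343, against 7.52 with DMSO. KIAA0368, the proteasome adaptor ECM29, was at 10.4 FPKM with SAHA, against 20.0 FPKM with DMSO. Each of these values is 1 library.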

How the data were processed

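RNA of U2OS cells was sequenced in 14 libraries, of which 10 are in one deposited table and 4 in another. Both tables hold FPKM per gene, as the authors deposited them. Per the submitters' processing notes, reads were handled with FastQC, cutadapt and TopHat2 on hg19, with no versions given, while the FPKM program, its annotation and its use of strand were not given in the sources used here. Depth is unknown. The authors' FPKM divides by gene length and by the library's fragments, so 1 very abundant gene lowers all others. One row named unknown was left out (1 of 28502), and 0 sample columns were unused. limma 3.58.1 in R 4.3.3 was fitted to log2(FPKM + 1) of the 8 libraries of 2-PCPA, GSK343, rapamycin and DMSO with the replicate number as a block, trended variance and Benjamini-Hochberg adjustment over 12603 genes averaging 1 FPKM or more, and was tested on simulated data. The block follows the tables: libraries with the same number are in the same table, and their deviations correlated with r of 0.711 to 0.784 in 6 pairs of groups. Libraries with 1 replicate were set against DMSO of the first table over 12804 genes, with no test and a limit of 0.5 log2 from the all-gene median. Named members were up to 5 lower and 5 higher per replicated compound by size of change, the 3 furthest each way per single library, the catalytic genes and their inducible partners, PSMD14, PSME1, PSME2 and PSMF1. Members, lists, motifs and tests were chosen with earlier results of these data known. Alternatives were other pseudocounts (0.1 and 5), filters, centring, quantile and TPM scaling, other variance models, leaving out rows or libraries, and means for medians; a filter at 20 FPKM was chosen after seeing the data. Relative depth is the most frequent ratio of low values between a library and DMSO. The values used were above 0, with cuts below 1 FPKM that were stricter for DMSO than for the library. Promoters came from RefSeq. The values of 1 gene in the partner lists are not reported here.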

Additional observations from a re-analysis of the deposited data

How the results depend on the processing

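No member passed the limma test with 2-PCPA, GSK343 or rapamycin in any alternative (0 each), and the lowest adjusted p of any member was 0.0585, 0.495 and 0.206. Genes called over the whole table were few and unstable, so the background of called genes is too. With 2-PCPA (3 genes) they were 0 with a pseudocount of 0.1, 1 with a pseudocount of 5, 1 with no filter, 7 at 20 FPKM, 16 with robust variances, 38 without small RNA and clone rows, 14 without rows at 0 in the first table and 272 with only the 2 groups compared. With GSK343 (2 genes) they were, in the same order, 0, 1, 0, 28, 18, 46, 10 and 0, and 1 at 5 FPKM, 0 with median centring, 0 with quantile normalization and 1 with TPM. With rapamycin (2 genes) they were, again in that order, 0, 0, 0, 10, 26, 66, 25 and 0, and 4 at 5 FPKM, 5 with median centring, 0 with quantile normalization and 1 without a variance trend. Without the replicate block, 1, 0 and 0 genes were called with 2-PCPA, GSK343 and rapamycin. Leaving out each library in turn gave 2 to 47, 0 to 44 and 0 to 42 genes and member medians of -0.24 to -0.14, -0.25 to -0.12 and -0.35 to -0.18. The highest counts came without the first 2-PCPA library (47) and without the first DMSO library (44 and 42), and the 0s without either 2-PCPA library. An arm left with 1 library is assumed to vary like the others. The member median with 2-PCPA was -0.31 with no filter, -0.090 at 20 FPKM and -0.068 with quantile normalization, and all alternatives gave medians below 0 for the 3 compounds. The all-gene median with 2-PCPA was 0.08 under TPM, against -0.20 as deposited. With single libraries, members higher with BIX-01294 were 5 with no filter and 5 without subtracting the all-gene median, and at 20 FPKM 1 was lower. At 20 FPKM BRD4770 had 1 lower member and a median of -0.077, GSK-J4 had 1 higher, SAHA 2 lower (also 2 at a pseudocount of 5) and UNC1215 0 higher. By means, the regulatory minus core difference was 0.066 in the first 2-PCPA library, 0.029 with BRD4770, 0.11 with GSK-J4 and 0.012 with SAHA, and with inducible subunits and 19S chaperones added it was -0.060 with GSK-J4. The cause was not tested in any of these.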
